A study of Mus musculus with 9 samples.

Results

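The transcripts described here belong to 10 genes of ferritin, haem breakdown and iron transport, chosen by name from the 53342 genes of the count table. They are the ferritin chains Fth1 and Ftl1, the haem importer Slc48a1, the haem oxygenase Hmox1, the biliverdin reductases Blvra and Blvrb, the iron exporter Slc40a1, and the iron importers Slc11a1, Slc11a2 and Tfrc. All 10 were found and all 10 had enough counts to be among the 12511 genes tested. RNA was sequenced from macrophages grown from the bone marrow of wild-type male and female C57BL/6J mice of 8 to 12 weeks. The 3 groups received vehicle medium, rapamycin (an inhibitor of the mTORC1 complex) or Torin-2 (which blocks the ATP site of mTOR and so both of its complexes) for 2 h. Homogenised spinal cord, pooled from male and female C57BL/6 mice of 8 to 20 weeks, was then added to every group for 24 h at 1% (10 mg per mL), so that no group lacked homogenate. Each group held 3 libraries from marrow of different animals, and the inhibitor doses are not stated in the labels. C57BL/6 mice carry a loss-of-function form of Slc11a1, which limits these cells as a model of that transporter.

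Macrophages take in haem iron when they digest red cells and cell debris. The membrane carrier encoded by Slc48a1 moves haem out of the phagolysosome. Hmox1 opens the haem ring and frees its iron, and the biliverdin reductase Blvra turns the green product into bilirubin. Freed iron is stored inside a shell of Fth1 and Ftl1 subunits, of which the heavy chain oxidises the iron and the light chain helps to form the mineral core, or leaves the cell through ferroportin (Slc40a1). Iron bound to transferrin enters through the receptor Tfrc, and the proton-coupled carriers Slc11a1 and Slc11a2 move ferrous iron out of phagosomes and endosomes.

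Several of these messages carry iron-responsive elements, hairpins that bind iron regulatory proteins when iron is scarce. In the leader of a message the bound hairpin blocks translation, and in the tail of Tfrc it protects the message from decay. The hairpins are shown because those in leaders are known to act on translation, which RNA sequencing does not measure, and those of Tfrc on the level of RNA. A search of the GENCODE M21 transcripts (GRCm38) for the loop CAGTGN, flanked by 5 base pairs and preceded by an unpaired C, found 7 matches in 4 of the 10 members. Outside the coding part, such a match occurs in 0.983% of the protein-coding genes tested. Each is written 5′ to 3′ on the strand of the gene, with the 6 loop bases in capitals. The first 3 lie in 5′ untranslated regions, at chr19:9982732-9982761 (Fth1, plus strand), chr7:45459778-45459807 (Ftl1, minus strand) and chr1:45925464-45925493 (Slc40a1, minus strand).
Fth1: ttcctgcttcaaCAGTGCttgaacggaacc
Ftl1: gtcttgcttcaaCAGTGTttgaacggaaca
Slc40a1: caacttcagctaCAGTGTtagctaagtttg
The other 4 lie in the 3′ untranslated region of Tfrc on the plus strand, in the order shown at chr16:32631219-32631248, chr16:32631598-32631627, chr16:32631663-32631692 and chr16:32631710-32631739.
Tfrc hairpin a: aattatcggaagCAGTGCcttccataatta
Tfrc hairpin b: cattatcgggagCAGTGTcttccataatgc
Tfrc hairpin c: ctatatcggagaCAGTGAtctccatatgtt
Tfrc hairpin d: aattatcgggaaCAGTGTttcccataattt
No match to these letters was found in the other 6 members, which says nothing of elements with other letters.

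Libraries held 16116666 to 24044329 counts, and the 10 members took 6.98% to 9.09% of them. Values are CPM, the counts of a gene relative to the library total, scaled by TMM, a factor that corrects for library composition, and fold changes are relative to the other genes of the cell. All 8 macrophage markers were tested and their summed level was 11807 to 16419 CPM with vehicle, 19489 to 21152 CPM with rapamycin and 14951 to 16763 CPM with Torin-2. Most of that sum was Lyz2 (8129 to 11755, 14255 to 15835 and 10695 to 12666 CPM), and single markers differed in direction. Adgre1 was at 869.9 to 993, 641 to 784 and 659.9 to 709 CPM and Fcgr1 at 91.0 to 108, 73.1 to 79.1 and 31.2 to 41.5 CPM in the same order, with vehicle highest. Cd14 went the other way, at 37.8 to 51.6, 389 to 463 and 262 to 303 CPM, and Csf1r and Mertk were also lowest with vehicle. The 9 erythroid markers, among them haemoglobin genes, summed to at most 0.585 CPM in any library and none had enough counts to be tested. Transcripts of oligodendrocytes and myelin, which the homogenate contains, summed to 481 to 614 CPM with vehicle, 693 to 847 CPM with rapamycin and 366 to 424 CPM with Torin-2. Mbp made up most of this sum (367 to 472, 537 to 668 and 298 to 344 CPM), and its markers did not all follow it. Cnp was highest with vehicle, at 31.1 to 35.1, 20.1 to 24.9 and 17.9 to 19.1 CPM. Fibroblast markers summed to 8.95 to 37.8, 12.3 to 78.2 and 2.38 to 7.17 CPM in the same order, those of astrocytes and neurons to 22.7 to 28.8, 28.5 to 41.8 and 17.1 to 18.5 CPM, and those of neutrophils to at most 4.83 CPM. The part of these other transcripts in the results below was not tested, and in bulk RNA a change in the number of cells of a type and a change in RNA per cell cannot be told apart.

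Ordered by level per kilobase of merged exons, both ferritin chains and Hmox1 stood far above the rest. With vehicle, Ftl1 had 17891 ± 1444 CPM per kb (SD, n = 3), Fth1 13323 ± 1459 and Hmox1 5820 ± 40.5. The order of the ferritin chains depends on the length used, since per kilobase of the longest protein-coding transcript Fth1 stood at 30934 and Ftl1 at 24766 CPM. Next came Slc48a1 at 335 ± 11.1 and Slc11a1 at 329 ± 13.5 CPM per kb of merged exons, which did not differ beyond their spread by that length, then Blvrb at 86.5 ± 8.48 and Slc40a1 at 50.6 ± 2.55. Per kilobase of the longest protein-coding transcript, Slc11a1 (526) stood above Slc48a1 (364). By merged exons, Blvra (33.0 ± 1.07), Slc11a2 (11.3 ± 0.0729) and Tfrc (5.95 ± 2.65) were lowest. Tfrc, the receptor for transferrin iron, was thus the least abundant member in all 3 groups, by either length.

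Torin-2 against vehicle moved members in both directions. The haem genes Hmox1 and Slc48a1, the light chain Ftl1 and the receptor Tfrc fell, while the exporter Slc40a1 and, by much less, both biliverdin reductases rose. Fth1, Slc11a1 and Slc11a2 did not pass the test. That is 7 of 10 members called at a Benjamini-Hochberg adjusted p under 0.05 by edgeR's quasi-likelihood test, where 65.4% of all tested genes were called, so the share itself is no result about these genes. By direction, 3 rose and 4 fell, against 32.5% and 32.9% of all genes. Libraries of the groups did not overlap for 7 members, against 70.2% of all genes. The median log2 fold change of the members was -0.02, beside -0.01 for all genes tested.

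Rapamycin against vehicle called 6 of 10 members, 3 in each direction, where 50.8% of all genes were called, 24.6% higher and 26.2% lower. Tfrc, Hmox1 and Slc48a1 fell and Slc40a1, Blvrb and Slc11a1 rose. The groups did not overlap for 8 members, against 57.5% of all genes, and the members' median log2 fold change was -0.10 beside 0.00 for all genes. Scaled by library totals alone, the share of calls over all genes that were higher was 37.4% in place of 48.5%, and 5 members were called lower in place of 3, with Blvra and Slc11a2 added, while the rise of Slc11a1 was no longer called.

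Torin-2 against rapamycin, which tests the difference between the inhibitors directly, called 7 of 10 members, 6 of them lower with Torin-2, where 48.2% of all genes were called, 24.1% lower and 24.2% higher. Hmox1, Ftl1, Tfrc, Slc48a1, Blvrb and Slc11a1 were lower with Torin-2 and Blvra was higher. The median was -0.30 beside 0.00 for all genes, and the groups did not overlap for 7 members, against 57.2% of all genes.

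**Figure D1:**
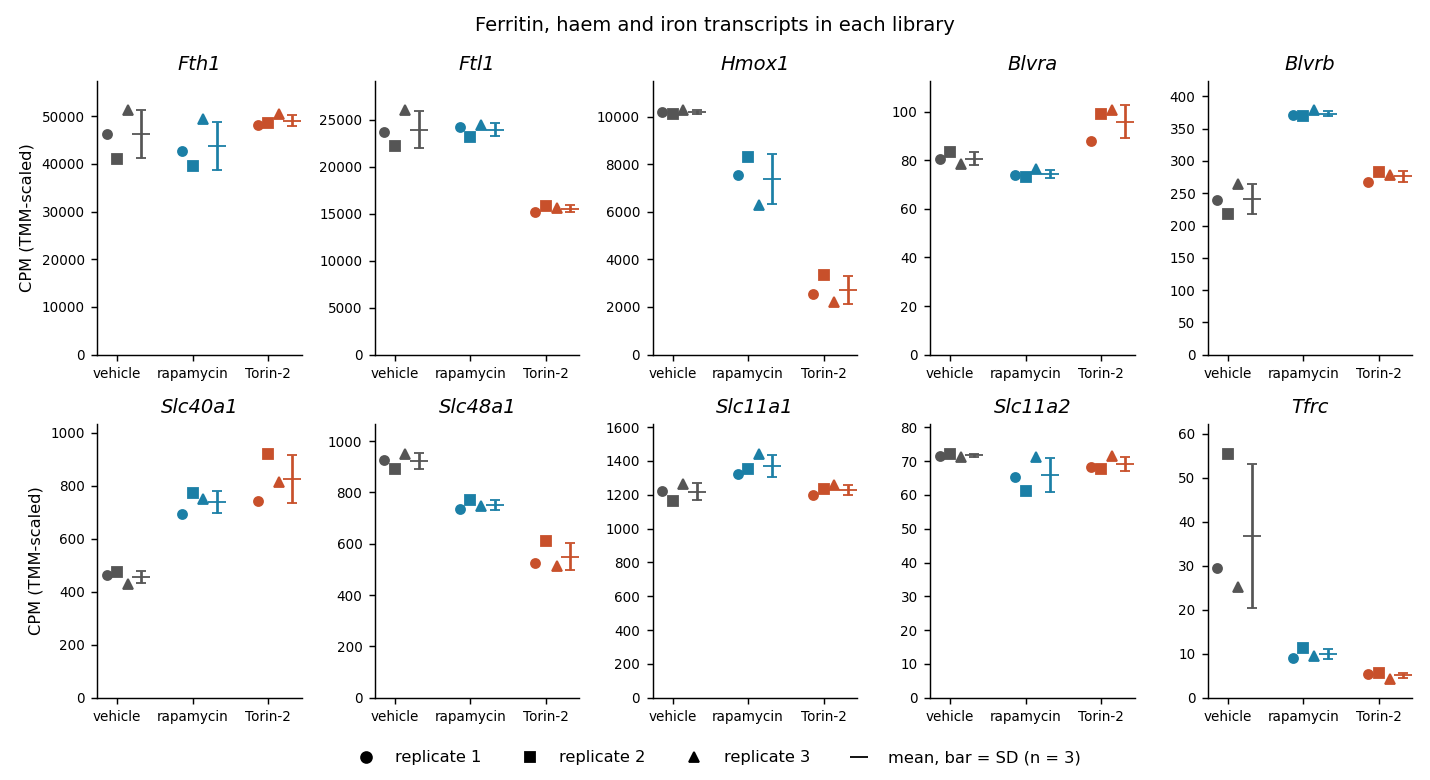
Level of each of the 10 transcripts in CPM (vertical axes from 0) in the 9 libraries, with a marker shape for each replicate number and the mean with SD beside each group. Hmox1 lay between 10118 and 10259 CPM in the vehicle libraries and at 2200.4 to 3341 CPM with Torin-2, while the Fth1 libraries of the 3 groups overlapped.

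The 2 ferritin chains came apart under Torin-2. Fth1 stood at 46272, 41128 and 51248 CPM in vehicle replicates 1, 2 and 3, at 42623, 39492 and 49396 CPM with rapamycin, and at 48139, 48656 and 50448 CPM with Torin-2. The 3 groups overlapped, and in both the vehicle and the rapamycin group replicate 2 was lowest and replicate 3 highest. The log2 fold change with Torin-2 was 0.09 (95% interval -0.13 to 0.30; adjusted p 0.462 by edgeR, Benjamini-Hochberg). With rapamycin it was -0.08 (interval -0.29 to 0.14). Fth1 (ENSMUSG00000024661, chromosome 19, 9980598 to 9985098, GRCm38) had the most counts of any gene in all 9 libraries, which does not take its length into account. Against rapamycin, Torin-2 gave 0.16 for Fth1 (adjusted p 0.2001 by edgeR, Benjamini-Hochberg). That difference was called without rapamycin replicate 3 (0.26, adjusted p 0.0472), without replicate 3 of every group (0.24, adjusted p 0.0366) and when scaled by library totals (0.24, adjusted p 0.0448).

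Ftl1, the light chain, fell with Torin-2 and not with rapamycin. Its libraries stood at 23705, 22187 and 26028 CPM with vehicle, at 24252, 23183 and 24459 CPM with rapamycin, and at 15162, 15862 and 15673 CPM with Torin-2. Every Torin-2 library lay below every other library. The log2 fold change was -0.62 ± 0.07 (SE) against vehicle, a 1.54-fold lower level (adjusted p 1.12e-05, edgeR, Benjamini-Hochberg). Against rapamycin it was also -0.62 (adjusted p 2.78e-05 by edgeR, Benjamini-Hochberg). Rapamycin against vehicle gave -0.0005 with a 95% interval from -0.16 to 0.16. Ftl1 (ENSMUSG00000050708, chromosome 7, 45457944 to 45459884) has processed copies that can share its reads, and their counts were small. Ftl1-ps1, the most abundant of them, held 1053 to 1862 counts per library against 283542 to 553639 for Ftl1. The exons of Ftl1 also overlap Gm10252 on the other strand, which stood at 471 ± 22.6 CPM with vehicle, 468 ± 165 CPM with rapamycin and 328 ± 44.5 CPM with Torin-2, and without known strand their reads cannot be told apart.

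The ratio of heavy to light chain counts within a library does not depend on scaling between libraries. It was 1.95, 1.85 and 1.97 with vehicle, 1.76, 1.70 and 2.02 with rapamycin, and 3.17, 3.07 and 3.22 with Torin-2. The Torin-2 libraries lay above all 6 others, and the vehicle and rapamycin libraries overlapped. Means were 1.92 ± 0.0622, 1.83 ± 0.169 and 3.15 ± 0.0779 (SD, n = 3). The ratio is given as a description, with no test. Together the chains made up 6.64% to 7.75% of counts with vehicle, 6.04% to 7.05% with rapamycin and 6.43% to 6.69% with Torin-2, so the groups overlapped in total ferritin message. Ferritin protein, which the hairpins shown for both chains control, was not measured here.

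**Figure D2:**
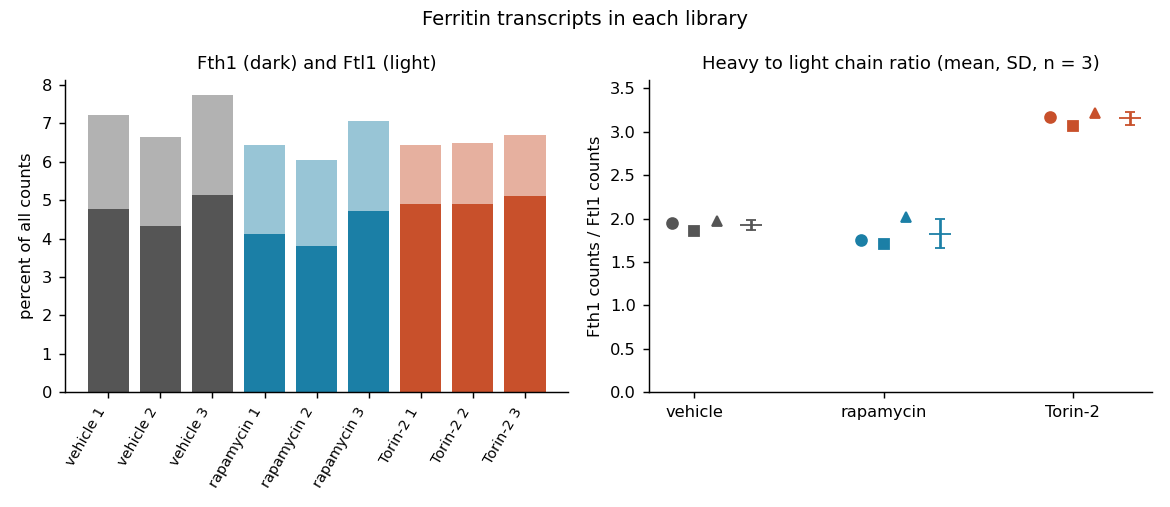
Left, the share of all counts in percent taken by Fth1 (dark) and Ftl1 (light) in each library; right, the ratio of Fth1 to Ftl1 counts, with circles, squares and triangles for replicates 1, 2 and 3 and the mean with SD beside them. The mean ratio was 1.92 with vehicle, 1.83 with rapamycin and 3.15 with Torin-2.

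Ncoa4 encodes the receptor that carries ferritin to the lysosome for breakdown, and its message fell with both inhibitors. It stood at 344, 302 and 344 CPM with vehicle, at 187, 187 and 216 CPM with rapamycin, and at 106, 102 and 108 CPM with Torin-2. The groups did not overlap in any pair. The log2 fold changes were -1.65 with Torin-2, -0.75 with rapamycin and -0.90 between them (adjusted p of the first 4.31e-09 by edgeR, Benjamini-Hochberg).

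The message of the haem oxygenase Hmox1 fell with both inhibitors, and further with Torin-2. Hmox1 (ENSMUSG00000005413, chromosome 8, 75093621 to 75100589) stood at 10194, 10118 and 10259 CPM with vehicle, at 7552, 8319.7 and 6268 CPM with rapamycin, and at 2554, 3341 and 2200.4 CPM with Torin-2. The groups did not overlap, and under both inhibitors replicate 2 was highest and replicate 3 lowest. Hmox1 was 3.78-fold lower with Torin-2 (log2 fold change -1.92 ± 0.14 SE; adjusted p 2.39e-07 by edgeR, Benjamini-Hochberg). That change was larger in size than those of 94.7% of the genes tested. Rapamycin gave -0.47 ± 0.14 (adjusted p 0.0138 by edgeR, Benjamini-Hochberg). The rapamycin call was lost without rapamycin replicate 3 (-0.36, adjusted p 0.0530). Torin-2 against rapamycin gave -1.45 (adjusted p 6.30e-06 by edgeR, Benjamini-Hochberg), so the inhibitors differed.

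Slc48a1, the carrier that delivers haem from the phagolysosome, fell with both inhibitors. It stood at 925, 891 and 952 CPM with vehicle, at 734, 771 and 747 CPM with rapamycin, and at 525, 611 and 513 CPM with Torin-2. The groups did not overlap in any pair, and rapamycin lay between the others. Log2 fold changes were -0.75 ± 0.07 with Torin-2 and -0.30 ± 0.07 with rapamycin (SE), with adjusted p values of 1.52e-06 and 0.00345 (edgeR, Benjamini-Hochberg). Torin-2 against rapamycin gave -0.45 (adjusted p 0.000214 by edgeR, Benjamini-Hochberg). The exons of Slc48a1 overlap those of Hdac7 on the other strand, which rose with both inhibitors from 7.34 ± 1.51 CPM with vehicle to 16.5 ± 1.05 CPM with Torin-2.

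The biliverdin reductases differed from Hmox1, and from each other both with rapamycin against vehicle and in the comparison of the inhibitors. Blvrb stood at 239.6, 218 and 265 CPM with vehicle, at 371, 370.3 and 378 CPM with rapamycin, and at 267, 283 and 279 CPM with Torin-2. Every rapamycin library lay above every other library. Rapamycin raised Blvrb by 0.63 ± 0.07 on the log2 scale (adjusted p 1.42e-05, edgeR, Benjamini-Hochberg), and it was lower with Torin-2 than with rapamycin by a log2 fold change of -0.44 (adjusted p 0.00021). The rise with Torin-2 against vehicle was 0.20 (adjusted p 0.0200, edgeR, Benjamini-Hochberg), a call that did not survive leaving out either of vehicle replicates 1 and 2 (adjusted p 0.0606 and 0.0868) or either of Torin-2 replicates 2 and 3 (0.0830 and 0.0527).

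Blvra, the main biliverdin reductase of adult tissues, was the less abundant reductase by counts. It stood at 80.4, 83.5 and 78.3 CPM with vehicle, at 73.8, 73.1 and 76.4 CPM with rapamycin, and at 88.0, 99.0 and 100.6 CPM with Torin-2. The Torin-2 libraries were the highest of the 9. The log2 fold changes were 0.25 ± 0.06 with Torin-2 (adjusted p 0.00348, edgeR, Benjamini-Hochberg), -0.12 ± 0.06 with rapamycin (adjusted p 0.134) and 0.37 between the inhibitors (adjusted p 0.000425). The Blvrb to Blvra count ratio was 2.61 to 3.38 with vehicle, 4.95 to 5.06 with rapamycin and 2.77 to 3.03 with Torin-2, so that rapamycin libraries stood apart from all others.

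Ferroportin, the only known iron exporter of mammalian cells and the product of Slc40a1, rose in message under both inhibitors. Slc40a1 (ENSMUSG00000025993, chromosome 1, 45908068 to 45926523) stood at 463, 473 and 429 CPM with vehicle, at 693, 771 and 749 CPM with rapamycin, and at 741, 921 and 814 CPM with Torin-2. Vehicle libraries lay below all others, and the inhibitor groups overlapped. The rise was 1.81-fold with Torin-2 (log2 fold change 0.86 ± 0.08 SE, adjusted p 1.61e-06) and 1.62-fold with rapamycin (0.70 ± 0.08, adjusted p 2.59e-05) by edgeR with Benjamini-Hochberg adjustment. Torin-2 against rapamycin gave 0.16, with a 95% interval from -0.01 to 0.34 and adjusted p 0.112 by edgeR with Benjamini-Hochberg adjustment. When replicate number entered as a block, that difference was called (0.16, adjusted p 0.0419), as it was without Torin-2 replicate 1 (0.23, adjusted p 0.0368) and when scaled by library totals (0.24, adjusted p 0.0300).

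Tfrc, the transferrin receptor, had the largest fold changes of the members against vehicle and the fewest counts, from 101 to 1144 per library. Tfrc (ENSMUSG00000022797, chromosome 16, 32608920 to 32632794) stood at 29.6, 55.5 and 25.3 CPM with vehicle, at 9.14, 11.4 and 9.47 CPM with rapamycin, and at 5.40, 5.53 and 4.32 CPM with Torin-2. The groups did not overlap, and vehicle replicate 2 stood well above the other vehicle libraries. Torin-2 lowered Tfrc 7.27-fold (log2 fold change -2.86 ± 0.27 SE, adjusted p 1.84e-06, edgeR, Benjamini-Hochberg). Rapamycin lowered it 3.66-fold (-1.87 ± 0.25, adjusted p 8.49e-05, edgeR, Benjamini-Hochberg). These changes were larger in size than those of 98.3% and 97.9% of the genes tested. Without vehicle replicate 2 they were -2.44 and -1.45, and both stayed called. Torin-2 against rapamycin gave -0.99 (adjusted p 0.0129, edgeR, Benjamini-Hochberg), a call lost without Torin-2 replicate 3 (-0.87, adjusted p 0.0541).

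The carriers of ferrous iron changed little. Slc11a1, the carrier of the macrophage phagosome, stood at 1224, 1164 and 1264 CPM with vehicle, at 1321, 1349 and 1443 CPM with rapamycin, and at 1197, 1234 and 1255 CPM with Torin-2. Rapamycin libraries lay above all others, by little. The log2 fold change was 0.17 ± 0.06 with rapamycin (adjusted p 0.0259, edgeR, Benjamini-Hochberg) and 0.01 with Torin-2 (95% interval -0.11 to 0.14, adjusted p 0.848). The rapamycin call was lost without vehicle replicate 1 (0.0693), vehicle replicate 2 (0.0858) or rapamycin replicate 3 (0.0755), with no filter on low counts (0.0519) and with library totals (0.251). Torin-2 against rapamycin gave -0.16 (adjusted p 0.0394, edgeR, Benjamini-Hochberg), and 9 of 16 alternatives lost that call, with adjusted p values up to 0.211. They were library totals, no filter, leaving out replicate 3 of every group, and leaving out vehicle replicate 1, rapamycin replicate 2 or 3, or any 1 of the Torin-2 libraries.

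Slc11a2, the carrier of the endosome, stood at 71.6, 72.2 and 71.3 CPM with vehicle, at 65.4, 61.1 and 71.1 CPM with rapamycin, and at 68.3, 67.6 and 71.4 CPM with Torin-2. The log2 fold changes were -0.05 (95% interval -0.19 to 0.08) with Torin-2 and -0.12 (-0.26 to 0.01) with rapamycin, and 0.07 between the inhibitors. None passed (adjusted p 0.465, 0.119 and 0.380, edgeR, Benjamini-Hochberg). The fall with rapamycin was called without rapamycin replicate 3 (-0.18, adjusted p 0.0232), without replicate 3 of every group (-0.19, adjusted p 0.0342) and with library totals (-0.22, adjusted p 0.0106).

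**Figure D3:**
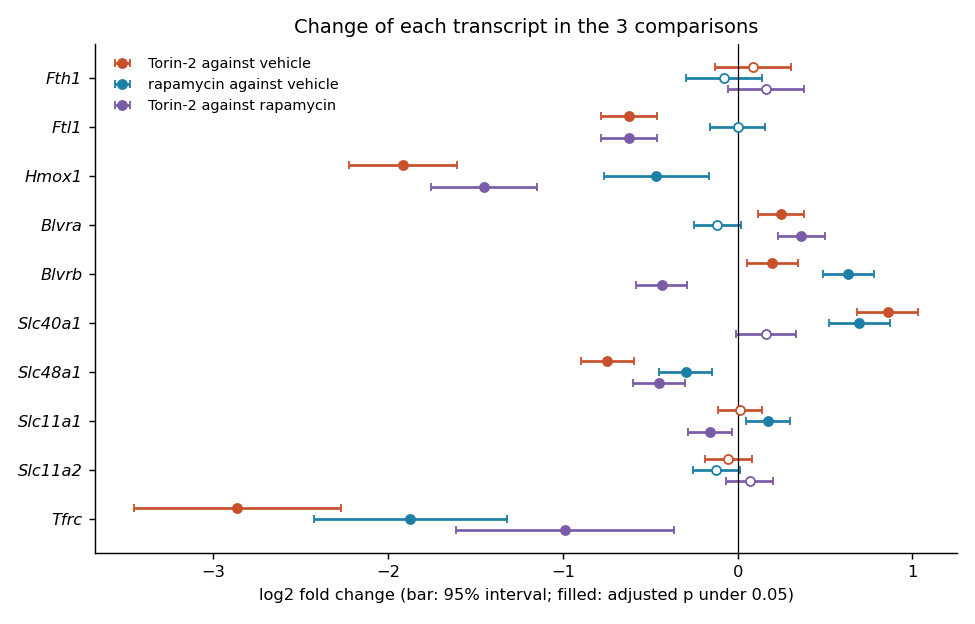
Log2 fold change of each of the 10 transcripts in the 3 comparisons, with the 95% interval as bars and filled points where the adjusted p was under 0.05 (edgeR, Benjamini-Hochberg). Tfrc (-2.86) and Hmox1 (-1.92) lay farthest to the left with Torin-2 and Slc40a1 (0.86) farthest to the right, while all 3 intervals of Fth1 and of Slc11a2 crossed 0.

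The remaining genes of iron and haem handling were taken from 4 lists, of which 58 genes were tested. With Torin-2 31 fell and 13 rose, against 32.9% and 32.5% of all genes. That is 75.9% called, against 65.4% of all genes, with a median log2 fold change of -0.29. With rapamycin 25 fell and 8 rose, against 26.2% and 24.6% of all genes. That is 56.9% called, against 50.8%, with a median of -0.27. Between the inhibitors 17 were lower and 12 higher with Torin-2, against 24.1% and 24.2% of all genes (50.0% called, against 48.2%).

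Iron regulation and ferritin turnover had 16 tested genes. With Torin-2 8 fell and 5 rose, and with rapamycin 4 fell and 1 rose, where 65.4% and 50.8% of all genes were called. Aco1, whose protein binds the hairpins when it lacks its iron-sulfur cluster, fell with both (log2 fold changes -0.53 and -0.32). Ireb2, the second hairpin-binding protein, rose with Torin-2 (0.31) and had 0.08 with rapamycin, which did not pass. Fbxl5, the iron-sensing ubiquitin ligase subunit that removes Ireb2 protein, also rose with Torin-2 (0.44). The iron chaperone Pcbp2, which loads ferritin, rose from 280.2 ± 3.31 CPM with vehicle to 492 ± 40.0 CPM with rapamycin and 727 ± 31.9 CPM with Torin-2. The metal importer Slc39a8 fell with both (-0.64 and -1.11), and Hfe, a partner of the transferrin receptor, fell with Torin-2 (-0.86). Trf, which encodes transferrin, held at most 12 counts in a library and was not tested, and Hamp, the gene of the hormone hepcidin, held 0.

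Partners of haem uptake, export and breakdown had 10 tested genes. With Torin-2 4 fell and 2 rose, and with rapamycin 3 fell and 3 rose, where 65.4% and 50.8% of all genes were called. Flvcr1, known as a haem exporter, rose from 159.5 ± 8.20 CPM with vehicle to 233 ± 11.7 CPM with rapamycin and 271 ± 9.33 CPM with Torin-2. Lrp1, a large endocytic receptor that also takes up the haem-haemopexin complex, rose by 1.11 and 1.28 on the log2 scale. Por, the reductase that passes electrons to haem oxygenase, fell (-0.64 and -0.48). Hmox2, the constitutive haem oxygenase, stood at 161 ± 4.38 CPM with vehicle and 141 ± 3.09 CPM with Torin-2, so that its log2 fold change of -0.19 was small beside that of Hmox1.

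Haem synthesis had 11 tested genes. Of these, 5 fell with each inhibitor, 2 rose with Torin-2 and 1 with rapamycin, where 65.4% and 50.8% of all genes were called. The synthesis enzymes Cpox (-0.80 and -0.48) and Alad (-0.70 and -0.61) fell with both. Alas1, the first enzyme, rose with rapamycin (0.34) and not with Torin-2 (-0.15, adjusted p 0.110, edgeR, Benjamini-Hochberg). Slc25a38, the mitochondrial glycine carrier of the pathway, rose with Torin-2 (0.99), and Fech, which inserts the iron, rose by 0.23.

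Mitochondrial iron and iron-sulfur assembly had 21 tested genes. With Torin-2 14 fell and 4 rose, and with rapamycin 13 fell and 3 rose, where 65.4% and 50.8% of all genes were called. Bola3, a late assembly factor, fell from 32.7 ± 1.27 CPM with vehicle to 20.0 ± 1.33 CPM with rapamycin and 8.96 ± 1.25 CPM with Torin-2. The cytosolic factor Ciapin1 (-1.12 and -0.57) and the glutaredoxin Glrx5 (-0.98 and -0.61) fell with both. The iron importers of the inner membrane rose with Torin-2, Slc25a28 by 1.06 and Slc25a37 by 0.46, as did the co-chaperone Hscb by 1.37.

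**Figure D4:**
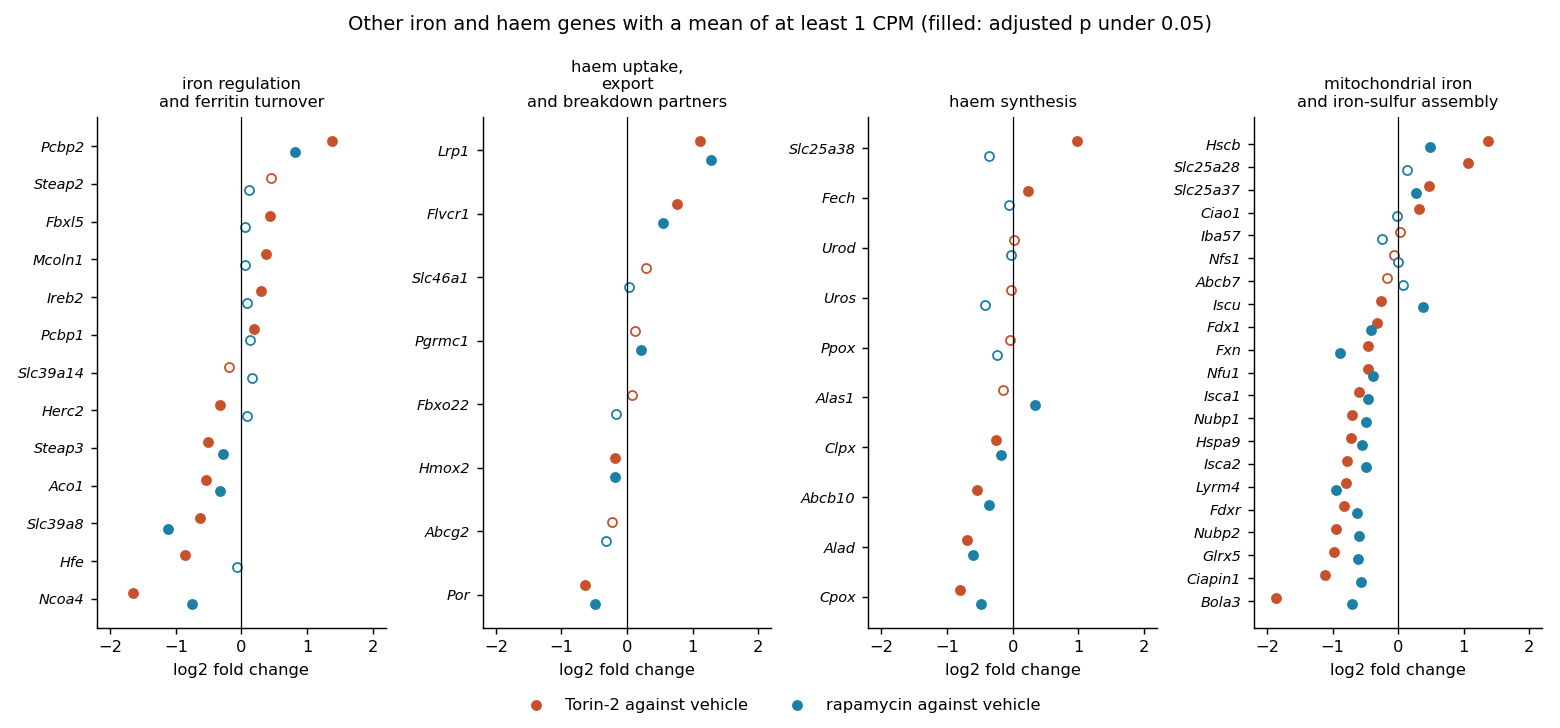
Log2 fold change against vehicle of the iron and haem genes reported here from the 4 lists, with a mean of at least 1 CPM, for Torin-2 and rapamycin, which share the vehicle libraries; filled points had an adjusted p under 0.05 (edgeR, Benjamini-Hochberg). Ncoa4 (-1.65) and Bola3 (-1.87) were the lowest of their panels with Torin-2.

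Hmox1 is known to be induced by NRF2 (Nfe2l2) and held off by the haem-sensing repressor BACH1, both with small MAF partners. Among 15 tested regulators of the members, 6 rose and 5 fell with Torin-2 and 10 rose and 3 fell with rapamycin. Of all genes, 65.4% were called with Torin-2 (32.5% higher and 32.9% lower) and 50.8% with rapamycin (24.6% higher and 26.2% lower). Bach1 rose from 83.7 ± 5.67 CPM with vehicle to 118 ± 2.51 CPM with rapamycin and 147 ± 7.19 CPM with Torin-2, and the small MAF genes Mafk and Mafg rose too (1.09 and 0.78 with Torin-2). Maff, the remaining small MAF gene, had -0.16 with Torin-2 (adjusted p 0.339, edgeR, Benjamini-Hochberg) and rose with rapamycin (0.37, adjusted p 0.0427). That rapamycin call of Maff was lost in 13 of 16 alternatives. Nfe2l2 rose by 0.50 and 0.37, and Keap1, which marks NRF2 for breakdown, fell with Torin-2 (-0.24). Spic, the factor that drives iron-recycling macrophages, fell from 6.54 ± 0.562 CPM to 1.66 ± 0.273 CPM with rapamycin and 1.23 ± 0.117 CPM with Torin-2. Of the factors that speed the decay of AU-rich messages, Zfp36, for which Tfrc is a known target, rose with rapamycin (1.14) and had 0.13 with Torin-2 (adjusted p 0.158, edgeR, Benjamini-Hochberg). Zfp36l2 rose with both (1.83 and 1.36), and Zfp36l1 fell with both (-1.39 and -0.67). Hif1a also fell with both (-0.87 with Torin-2 and -0.58 with rapamycin). Myc rose with rapamycin (1.06) and had 0.19 with Torin-2 (adjusted p 0.255, edgeR, Benjamini-Hochberg).

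Other genes that NRF2 and BACH1 are known to control did not move as one with Hmox1. Of 14 tested, 8 rose and 5 fell with Torin-2, where 32.5% of all genes rose and 32.9% fell. With rapamycin 8 rose and 2 fell, where 24.6% of all genes rose and 26.2% fell. The medians were 0.22 with Torin-2 and 0.54 with rapamycin, and 65.4% and 50.8% of all genes were called. The cystine carrier Slc7a11 rose from 134 ± 12.4 CPM with vehicle to 193 ± 19.5 CPM with rapamycin and 294 ± 36.1 CPM with Torin-2, and Osgin1 (3.26) and the glutathione synthesis gene Gclc (0.90) also rose with Torin-2. Nqo1 (-1.49), G6pdx (-1.43) and Prdx1 (-1.29) fell with Torin-2, as Hmox1 did. With rapamycin, which lowered Hmox1, Gsr (0.81), Abcc1 (0.77) and Srxn1 (0.76) rose most, and G6pdx (-0.60) and Txn1 (-0.29) fell.

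**Figure D5:**
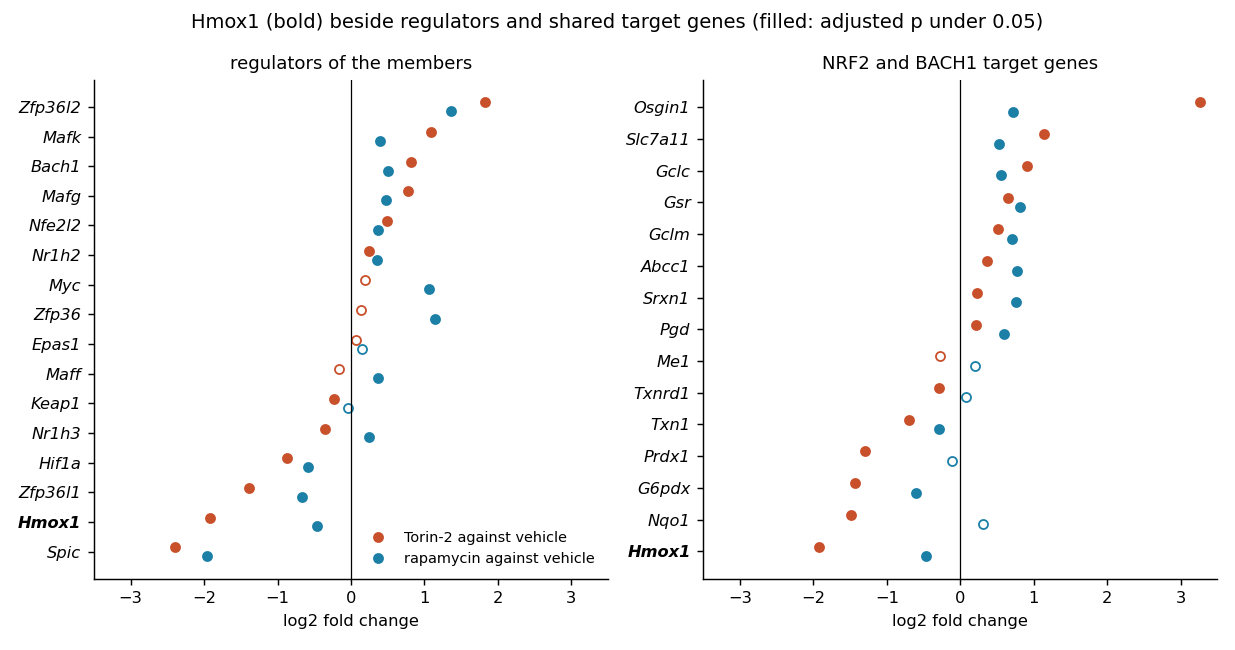
Log2 fold change against vehicle of 15 regulators (left) and 14 other NRF2 and BACH1 target genes (right), with Hmox1 in bold, for Torin-2 and rapamycin, which share the vehicle libraries; filled points had an adjusted p under 0.05 (edgeR, Benjamini-Hochberg). With Torin-2 Hmox1 (-1.92) lay below all 14 target genes, 8 of which rose.

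Promoter windows of 300 bases were listed for 6 of the members in the RefSeq table for GRCm38.p6, and Hmox1, Slc40a1, Slc48a1 and Slc11a2 were not among them. On either strand, TGACNNNGC, a core of the element that NRF2 and BACH1 bind, was found for Blvra alone, where 12.4% of all windows hold it. TGAGNNNGC was found for Blvrb and Slc11a1 (17.6% of all windows) and CACGTG for 0 of them (7.15%). These matches describe the letters only.

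Tested genes with a mean of at least 10 CPM were searched, leaving out predicted genes, Riken clones, pseudogenes and symbols that are accession numbers. Over the 9 libraries, those whose log2 level followed Hmox1 most closely were Lpcat3, Calm3 and Hsd17b4, with Pearson's r of 0.996, 0.995 and 0.994. Closest to Tfrc were Cyb5b (0.996), Rexo2 (0.989) and Mrps25 (0.989), and closest to Fth1 were Dpf2 (0.942), Dhrs3 (0.935) and Rab10os (0.921). These are the highest of 7553 genes searched, the libraries share 3 treatments, and the values are descriptions with no test.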

How the data were processed

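The deposited table holds raw counts per gene for the 9 samples, 1 column each, which its whole numbers bear out. STAR 2.5.2a, bcl2fastq and FastQC are named in the submitters' processing notes, along with GRCm38.p6 (also as mm10). How reads were assigned to genes, on which strand and with which annotation, is not given in the sources used. Of 53342 identifiers, 53237 were found in GENCODE M21 (GRCm38), from which positions and lengths were taken.

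The counts were fitted with edgeR 4.0.16 under R 4.3.3 (filterByExpr, which left 12511 genes, TMM factors of 0.955 to 1.05, 1 quasi-likelihood fit over 3 groups without covariates, 2-sided, Benjamini-Hochberg over all tested genes, threshold 0.05), after a test on simulated counts. SE is the size of the log2 fold change divided by the root of the F statistic. DESeq2 1.42.0 served as an alternative, beside other scalings, no filter, a replicate block, 2-group fits and left-out libraries. With 16116666 to 24044329 counts per library, precision is lowest for Tfrc.

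For the 9 same-numbered pairs of libraries, deviations from the group means had correlations of 0.168 to 0.50. Differently numbered pairs had -0.358 to 0.162, so libraries of the same number were more alike. The main fit, which gave the intervals and calls above, did not use this pairing. Replicate number entered as a block only in 1 of the alternatives.

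The members and lists were chosen with earlier results of these data known. All members are named. From each list, up to 3 genes called in a direction with a mean of at least 1 CPM were eligible by size of change, and Ncoa4, Ireb2, Aco1, Fbxl5, Bach1, Nfe2l2, Keap1 and Zfp36 were named whatever their value. Trf, Hamp, Mafg, Maff and the overlapping or copied genes were added after their values were seen. A gene of the lists that the rule would name is counted in its list but not reported here.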

Additional observations from a re-analysis of the deposited data

How the results depend on the processing

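The 30 member results, 10 genes in 3 comparisons, were each recomputed under 16 alternatives, and 450 of the 480 values kept their side of the threshold, as did 21 of the 30 results in all 16. No called value changed sign. The uncalled log2 fold changes of Fth1 (-0.17 to 0.004) and Ftl1 (-0.09 to 0.06) with rapamycin and of Slc11a1 with Torin-2 (-0.02 to 0.04) lay on both sides of 0. Scaling by library totals gave 5 members lower with rapamycin in place of 3, and 3 members higher with Torin-2 than with rapamycin in place of 1, and it moved the median of all genes to -0.09 and 0.07 in these comparisons. With the replicate number as a block 2 members were higher with Torin-2 than with rapamycin, because Slc40a1 was added (0.16, adjusted p 0.0419, edgeR, Benjamini-Hochberg), and the block changed no other member's call. Leaving out libraries gave 1 to 2 for that count. Adding Fth1 or Slc40a1 was the change in each of these cases. The cause was not tested. The small changes of Blvrb with Torin-2, of Slc11a1 and of Slc11a2 are at the limit of what 3 libraries a group resolve.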

Other observations

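Iron drives the peroxidation of membrane lipids, and 9 genes of a list on that process were tested. With Torin-2 6 fell and 2 rose, with a median log2 fold change of -0.47, and with rapamycin 5 fell and 1 rose, with a median of -0.25, where 65.4% and 50.8% of all genes were called. Among those with a mean of at least 1 CPM, Dhodh fell most with each inhibitor (-1.59 with Torin-2 and -1.39 with rapamycin). Gpx4, the peroxidase that repairs lipid peroxides, stood at 406 ± 18.9 CPM with vehicle, 376 ± 18.5 CPM with rapamycin and 331 ± 14.7 CPM with Torin-2 (SD, n = 3), a log2 fold change of -0.30 with Torin-2. Gch1, which begins the synthesis of the antioxidant tetrahydrobiopterin, fell from 42.8 ± 3.29 CPM to 29.3 ± 0.202 CPM with rapamycin and 15.9 ± 0.247 CPM with Torin-2. Lpcat3, which builds polyunsaturated chains into phospholipids, fell from 105 ± 2.02 CPM to 88.5 ± 6.56 and 47.7 ± 4.37 CPM. Acsl4, which activates those chains, rose with both inhibitors (0.21 with Torin-2 and 0.30 with rapamycin).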
